A study of Mus musculus with 32 samples.

Results

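The collagen gene family was followed in bone and gingiva of mice with a ligature, an overloaded tooth, or both. Members were the genes whose mouse symbol is Col, a number, a and a number, with a total of at least 100 counts over the 16 libraries of a tissue. By this rule 44 of the 55359 genes listed were members in bone and 43 in gingiva. Col19a1 had 102 counts in bone and 35 in gingiva and was too low to test in either tissue, which left the same 43 genes tested in both. They comprised 11 chains of fibrillar collagens, 6 of collagen IV, 7 of the beaded filament collagens, 8 of the fibril-associated (FACIT) collagens, 3 of short chain network collagens, 2 multiplexins, 4 transmembrane collagens, and Col7a1 and Col26a1.

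All mice were 9-week-old wild-type C57BL/6J males, an inbred strain. Control mice (Co) were left untreated. A fine silk thread was tied round the second upper left molar in the ligature group (Li), a standard way to start periodontitis. In the trauma group (Tra) the same molar was raised with composite resin, so that it met the opposing tooth under overload, and the combined group (LiTra) had both. Each group had 4 libraries of poly(A) RNA from bone and 4 from gingiva. The labels gave neither the time between treatment and sampling nor whether a library was 1 animal or a pool. P-values therefore measure the spread between these libraries, which may be technical in part.

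Collagens are triple helices of 3 chains, made in the endoplasmic reticulum, where prolines and lysines are hydroxylated before the helix folds. Types I, III and V form the banded fibrils of gum, periodontal ligament and bone, and type I is the bulk of the protein of bone matrix. Type IV forms the sheet of basement membranes under epithelium and round vessels, XV and XVIII lie at the outer face of that sheet, and XVII and VII anchor the epithelium to the tissue beneath. Type VIII is a short network collagen of vessels, VI forms beaded filaments between fibrils, and XII sits on the fibril surface and is abundant in ligaments under load.

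Library totals ran from 38163979 to 70793037 counts in bone and from 36913075 to 50740393 in gingiva. Collagen genes took 0.973% to 7.62% of the counts of a bone library and 0.458% to 1.55% of a gingiva library. Counts were unevenly spread in 3 bone libraries: the 10 leading genes held 51.1% of Co 3, 62.9% of Tra 3 and 53.6% of LiTra 1, and a list of nasal gland transcripts held up to 49.1% of a bone library. The labelled tissues showed their markers: summed osteoblast markers were at 5513 to 13769 CPM (counts relative to the size of the library) in bone, and summed basal epithelium markers at 16740 to 29321 CPM in gingiva. Basal epithelium markers were also present in bone, at 309 to 2813 CPM. All levels below are CPM scaled by the trimmed mean of M-values (TMM) within a tissue. Differences are log2 ± SE from the quasi-likelihood test of edgeR with 4 libraries a group. A gene is said to have risen or fallen where its Benjamini-Hochberg adjusted p over all genes was under 0.05. In bulk tissue, fewer cells of a type and less RNA per cell cannot be told apart.

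In untreated mice the fibrillar chains led both tissues, but the epithelial collagen XVII stood 4th in gingiva. Scaled by exon length, the mean level ± SD (n = 4) in Co bone was 1417 ± 780.4 CPM per kb for Col1a1, 1009 ± 413 for Col1a2 and 843 ± 374 for Col3a1, the chains of types I and III. The next was Col5a2, a chain of the type V collagen that starts fibrils, at 123 ± 40.5 CPM per kb. In Co gingiva the levels were 183 ± 69.5 CPM per kb for Col1a1, 172 ± 64.5 for Col3a1, 127 ± 44.9 for Col1a2 and 84 ± 11.9 for Col17a1. The SDs of the first 3 genes overlapped in each tissue. These SDs measure the spread between libraries, while the genes were measured in the same libraries. Their order within a library was not tested. Fibrillar chains made up 88.5% to 93.1% of all collagen counts in Co bone libraries and 66.0% to 76.7% in Co gingiva.

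**Figure D1:**
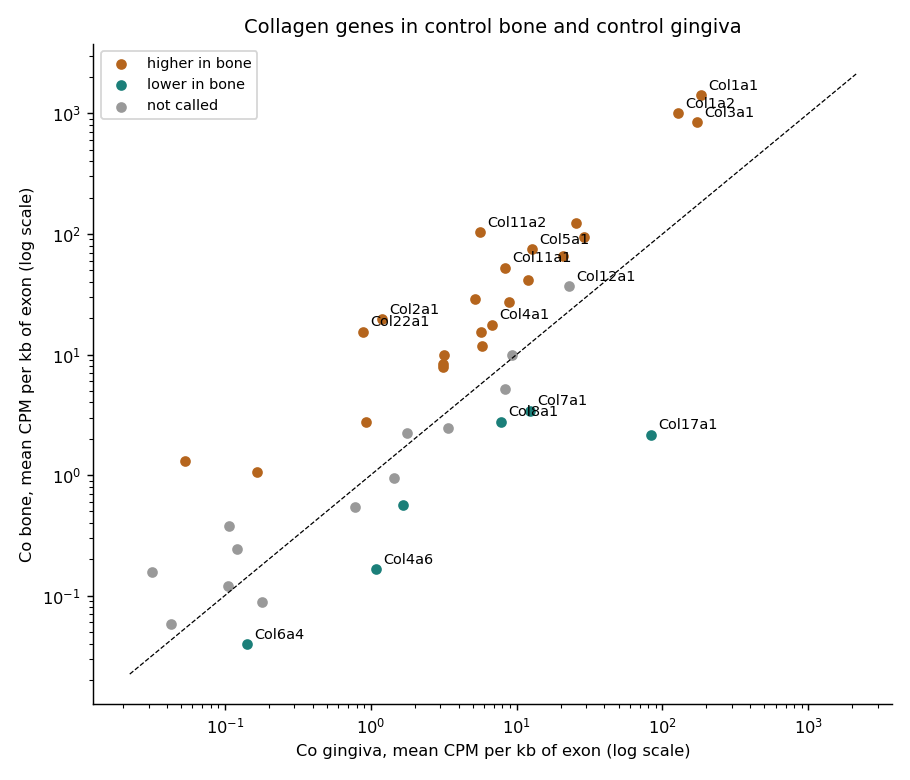
Mean level of 42 collagen genes in untreated bone (vertical axis) against untreated gingiva (horizontal axis), in CPM per kb of exon on log axes, with colours for genes higher in bone, lower in bone or not called in the joint fit and a dashed line of equal level. Col1a1, Col1a2 and Col3a1 are at the top right, and Col17a1 is high in gingiva and low in bone. Col9a1 is left off because its mean in Co gingiva was 0.

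A joint fit of all 32 libraries tested Co bone against Co gingiva. Of the 43 genes, 24 were higher in bone and 6 lower, or 69.77%, where 53.6% of all genes tested differed, 27.2% higher and 26.4% lower. All 11 fibrillar chains were higher in bone, with a median log2 difference of 2.55 against 0.07 over all genes. Col11a2, a chain of the fibrillar type XI best known from cartilage, was higher by 4.20 ± 0.42 (adjusted p = 5.08e-09 by edgeR), Col1a2 by 2.98 ± 0.37 and Col1a1 by 2.94 ± 0.45. The 6 genes lower in bone were Col17a1 (-5.23 ± 0.93), Col4a6 (-2.75 ± 0.70), Col7a1 (-1.91 ± 0.77), Col6a4 (-1.85 ± 0.72), Col4a5 (-1.60 ± 0.52) and Col8a1 (-1.52 ± 0.19). Col17a1 encodes a hemidesmosome protein of basal keratinocytes, Col7a1 the anchoring fibril, and Col4a5 and Col4a6 are chains of epithelial and other specialised basement membranes. The calls of Col7a1 (adjusted p = 0.0385) and Col6a4 (adjusted p = 0.0336) were lost in 6 and 4 of the 32 fits that each left out 1 library.

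The stretches before the gene starts are shown for 3 genes that rose in both tissues with the ligature or the combined treatment and for 2 whose behaviour differed, Col1a2 and Col17a1. RefSeq start windows (build GRCm38.p6) matched 35 of the members, with 38 windows, and Col18a1 had 2, of which the first is printed. Capitals mark the CCAAT box (the letters CCAAT, or ATTGG where it lies on the other strand), the GC box (GGGCGG, or CCGCCC on the other strand) and the TATA box (TATAAA). The stretches are the 250 bases before the start, 5′ to 3′:
Col18a1 (chr10:77166531-77166780, minus strand): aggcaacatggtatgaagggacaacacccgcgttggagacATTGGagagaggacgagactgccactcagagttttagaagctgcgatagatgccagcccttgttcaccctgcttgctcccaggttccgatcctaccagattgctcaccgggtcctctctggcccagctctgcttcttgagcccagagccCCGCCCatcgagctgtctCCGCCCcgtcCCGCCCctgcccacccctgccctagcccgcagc
Col5a3 (chr9:20815068-20815317, minus strand): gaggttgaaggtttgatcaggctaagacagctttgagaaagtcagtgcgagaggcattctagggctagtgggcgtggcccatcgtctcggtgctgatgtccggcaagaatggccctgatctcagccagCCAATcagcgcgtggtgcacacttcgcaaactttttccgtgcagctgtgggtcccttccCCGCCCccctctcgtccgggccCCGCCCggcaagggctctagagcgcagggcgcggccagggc
Col8a1 (chr16:57754738-57754987, minus strand): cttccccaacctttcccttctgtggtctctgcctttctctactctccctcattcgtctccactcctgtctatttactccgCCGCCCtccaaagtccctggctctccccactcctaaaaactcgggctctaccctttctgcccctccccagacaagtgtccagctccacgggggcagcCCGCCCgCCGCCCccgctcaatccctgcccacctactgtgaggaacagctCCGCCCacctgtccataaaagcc
Col1a2 (chr6:4505368-4505617, plus strand): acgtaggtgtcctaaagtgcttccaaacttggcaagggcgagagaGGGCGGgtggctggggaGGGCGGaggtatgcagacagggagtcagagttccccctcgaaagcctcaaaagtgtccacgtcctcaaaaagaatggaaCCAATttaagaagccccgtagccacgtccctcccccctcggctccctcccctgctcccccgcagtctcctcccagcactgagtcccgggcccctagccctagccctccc
Col17a1 (chr19:47692043-47692292, minus strand): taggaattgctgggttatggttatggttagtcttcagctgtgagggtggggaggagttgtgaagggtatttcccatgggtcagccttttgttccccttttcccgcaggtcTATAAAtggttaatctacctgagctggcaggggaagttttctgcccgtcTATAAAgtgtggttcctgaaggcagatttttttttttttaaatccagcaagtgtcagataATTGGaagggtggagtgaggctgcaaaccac
Each of the 5 stretches held 3 or 4 such matches. Over both strands of the 250 bases, GGGCGG was present in 22 of the 38 collagen windows (57.89%) and in 32.74% of all 32851 windows. CCAAT was present in 13 (34.21%) and in 33.85% of all, and TATAAA in 5 (13.16%) and in 12.37% of all. TGANTCA, the site of AP-1 factors, was found in 1, that of Col6a1 (2.63%), and in 6.75% of all. These are matches of letters, not sites shown to be used. Col4a1 and Col4a2 lie head to head: their windows, chr8:11312777-11313076 on the minus and chr8:11312555-11312854 on the plus strand, overlap by 78 bases.

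Members rose or fell against Co in both ligated groups of both tissues. In bone, Li against Co called 6 of 43 (13.95%), all higher, where 3.51% of all genes tested were called and 2.66% were higher. LiTra against Co called 13 higher and 1 lower (32.56%), where 16.9% of all genes were called, 8.29% higher and 8.64% lower. In gingiva, Li against Co called 9 higher and 1 lower (23.26%), against 7.49% of all genes, 5.19% higher and 2.3% lower. The 9 include Col9a1, which met the minimum total in gingiva only through its Li counts. There LiTra against Co called 8 higher and 8 lower (37.21%), against 22.9% of all genes, 11.4% higher and 11.5% lower. The libraries of the groups did not overlap for 12 members in Li and 8 in LiTra bone, and for 11 in Li and 13 in LiTra gingiva. Over all genes that held for 13.6% and 25.7% in bone and 14.6% and 28.5% in gingiva. As a share of the 43, the members were below all genes in LiTra bone and close to them in LiTra gingiva. Lack of overlap in LiTra therefore does not set members apart. The median log2 difference over the 43 genes was 0.22 and 0.25 in bone and 0.24 and 0.34 in gingiva, where over all genes it lay between -0.02 and 0.00. The 4 comparisons share their Co libraries within a tissue, so their calls are not separate evidence.

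Overload alone called none. For Tra against Co, edgeR called 0 of 43 members and 0% of all genes in each tissue, with 6 members in bone and 5 in gingiva at an unadjusted p under 0.05, and DESeq2 called 0 members. Over all genes DESeq2 called 160 of 20847 in bone and 92 of 20096 in gingiva. LiTra against Li called 0 in bone (0% of all genes, 1 member at an unadjusted p under 0.05, 0 by DESeq2, which called 106 of 20847 genes). In gingiva it called 0 of 43 (0.0844% of all genes, 9 at an unadjusted p under 0.05), with a lowest adjusted p of 0.0872. There DESeq2 called 3 members, Col11a2 and Col17a1 lower and Col24a1 higher. It called 1413 of all 20096 genes, a share close to that of the members. By edgeR 1 member was called, Col17a1 lower, without Li 1 or without Tra 2. The interaction, which asks whether the ligature difference changed under overload, called 0 members and 0% of all genes in both tissues, with 1 member in bone and 5 in gingiva at an unadjusted p under 0.05 and 0 by DESeq2. For the interaction DESeq2 called 8 of 20847 genes in bone and 183 of 20096 in gingiva.

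Several genes rose in both tissues. For Li against Co, 5 genes rose in both tissues, 83.33% of the 6 in bone and 55.56% of the 9 in gingiva. Over all genes tested in both tissues, 31.1% of those that rose in bone and 16.9% of those that rose in gingiva were shared. For LiTra against Co 8 did, 61.54% of the 13 in bone and 100% of the 8 in gingiva: Col4a1, Col4a2, Col18a1, Col5a2, Col5a3, Col6a3, Col8a1 and Col12a1. Over all genes the shares were 32.6% and 25.1%. The 8 include basement membrane, vessel network and fibril surface chains. Col2a1 fell in both, the only one to fall in bone and 12.5% of the 8 that fell in gingiva, where 12.3% of all genes that fell in gingiva also fell in bone.

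Col4a1 and Col4a2 encode the 2 chains of the type IV network common to most basement membranes. In bone, Col4a1 was at 95.4, 119.9, 134 and 178 CPM in Co and 92, 105, 153 and 107 in Tra. It was at 284, 258, 300.4 and 318 CPM in Li and 212, 405, 300.2 and 395 in LiTra. Both ligated groups lay above both groups without a ligature. Its log2 difference from Co was 1.14 ± 0.22 in Li (adjusted p = 0.014 by edgeR) and 1.318 ± 0.23 in LiTra (adjusted p = 0.00148), and LiTra exceeded Tra by 1.52 ± 0.23.

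In gingiva the Col4a1 levels were 39, 58.5, 62.9 and 41.9 CPM in Co, 46.6, 50.5, 65.4 and 73 in Tra, 215, 485, 185 and 192 in Li, and 108, 131, 227 and 199 in LiTra. Again no library of a ligated group fell among those without one. The rise was 2.41 ± 0.33 in Li (adjusted p = 0.00148 by edgeR) and 1.72 ± 0.32 in LiTra (adjusted p = 0.00223). Li 2 was the highest of all, at more than the other 3 Li libraries.

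Col4a2 moved alongside. In bone it was at 75.4, 94.5, 98.7 and 136 CPM in Co, 172, 164, 189 and 203 in Li, 72, 81.3, 114 and 76.1 in Tra, and 134, 232, 185 and 233 in LiTra. Its Li libraries all lay above Co, while 1 LiTra library reached down into the Co range. In gingiva it was at 29.4, 42.2, 46.1 and 33 CPM in Co, 123, 295, 99.2 and 114 in Li, 35.2, 33.5, 45.3 and 57.7 in Tra, and 63.3, 72.5, 123 and 106 in LiTra, with both ligated groups above the others. The log2 differences for Li and LiTra were 0.85 ± 0.21 and 0.96 ± 0.21 in bone, and 2.07 ± 0.33 and 1.28 ± 0.32 in gingiva. The Li call in bone (adjusted p = 0.0371 by edgeR) was lost in 9 of 16 fits that left out 1 library.

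The chains did not rise to the same extent. The ratio of Col4a1 to Col4a2 counts was 1.26 to 1.35 in Co bone and 1.28 to 1.41 in Tra, but 1.56 to 1.65 in Li and 1.59 to 1.75 in LiTra. In gingiva it was 1.27 to 1.39 in Co, 1.27 to 1.51 in Tra, 1.65 to 1.87 in Li and 1.71 to 1.88 in LiTra. Every ligated library therefore had a higher ratio than every unligated one of its tissue; this is a description, with no test. Where the head-to-head genes share sequence, unstranded counting could mix their reads, and the use of strand is not given in the sources used here. The other collagen IV chains did not rise: Col4a3 to Col4a6 had no call against Co in bone, and in gingiva Col4a6 fell in LiTra.

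Col18a1, which encodes the collagen whose end fragment is endostatin, had the largest rise in Li bone, and in LiTra bone was exceeded only by the scarce Col6a4 and Col9a1. It was at 28.8, 41.9, 24.8 and 49.5 CPM in Co, 119, 88.8, 153 and 179 in Li, 45.9, 29.4, 62 and 54.8 in Tra, and 80.2, 197, 157 and 151 in LiTra. Every ligated library lay above every unligated one. The log2 difference was 1.89 ± 0.32 in Li (adjusted p = 0.00666 by edgeR) and 2.01 ± 0.32 in LiTra (adjusted p = 0.00104). Gingival levels were 41.6, 76.9, 53 and 61.2 CPM in Co, 132, 207, 120.2 and 128 in Li, 44.4, 45.1, 81.7 and 69.9 in Tra, and 73, 91, 139.6 and 122 in LiTra. There the Li libraries stood clear of Co (1.33 ± 0.26) and the LiTra libraries overlapped it (0.87 ± 0.26, adjusted p = 0.0257, lost in 4 of 16 fits without 1 library).

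Col15a1, the other multiplexin, rose by 1.36 ± 0.35 in Li gingiva (adjusted p = 0.0313 by edgeR, lost in 4 of 16 fits without 1 library). Its levels there were 24.6, 44.6, 46.3 and 31.8 CPM in Co and 69.5, 168, 72.6 and 69.1 in Li. Li 2 was again the highest, and the groups did not overlap. In bone it rose by 0.80 ± 0.20 in LiTra, with overlapping libraries, a call lost in 1 of 16 fits without 1 library. Endothelial markers moved with these genes. Their summed level in gingiva was 171 to 208 CPM in Co and 170 to 210 in Tra, against 305 to 511 in Li and 318 to 439 in LiTra, and 6 of 8 rose in Li and 7 of 8 in LiTra. In bone it was 274 to 398 CPM in Co and 250 to 389 in Tra, against 398 to 536 in Li and 350 to 560 in LiTra, with 0 of 8 called in Li and 2, Emcn and Pecam1, in LiTra. Over all genes 5.19% rose in Li gingiva, 11.4% in LiTra gingiva, 2.66% in Li bone and 8.29% in LiTra bone. Of the pericyte and smooth muscle markers, Mcam and Acta2 rose in bone in both ligated groups. The part of these cells in the collagen differences was not tested.

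**Figure D2:**
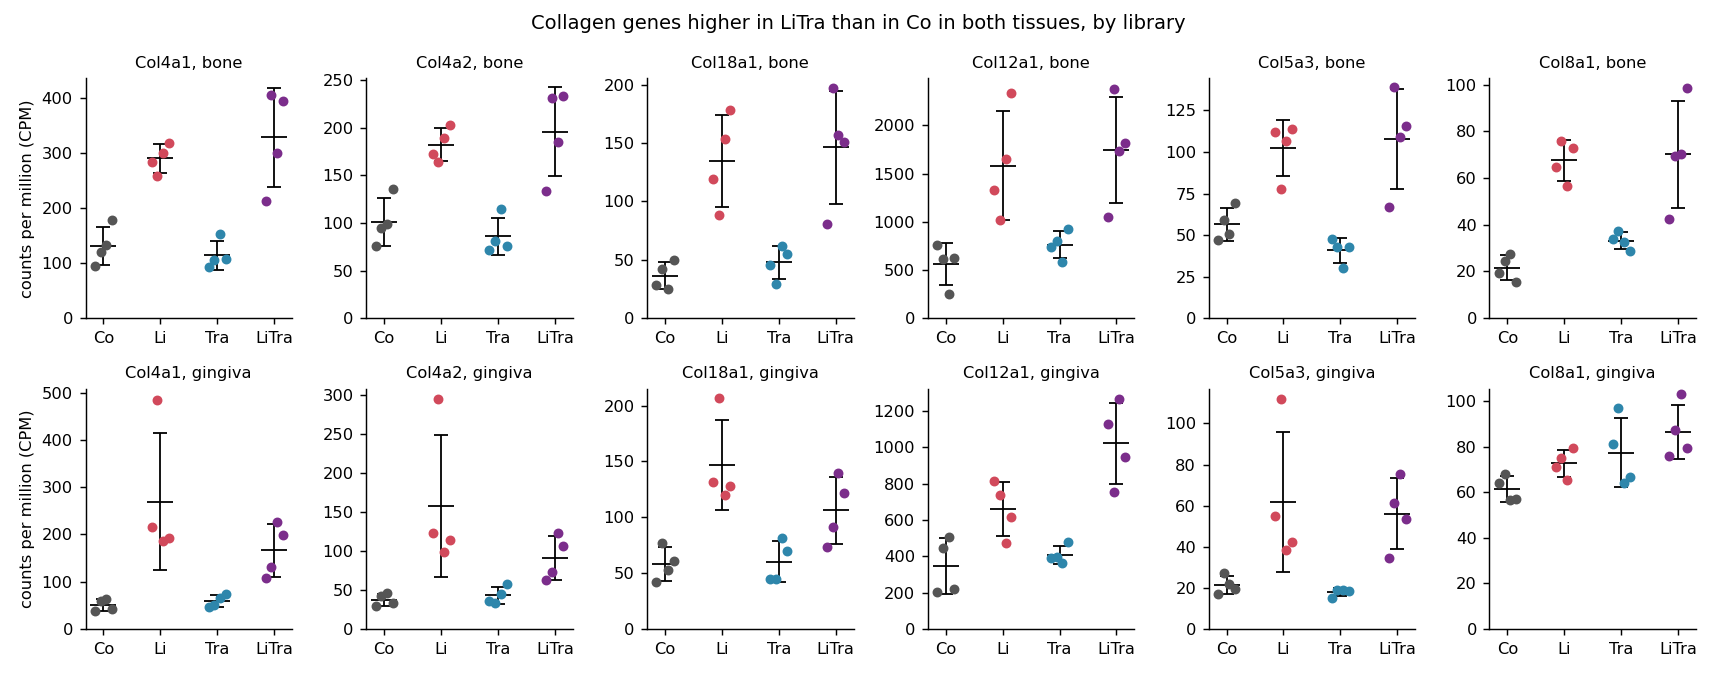
Levels of collagen genes that rose with the ligature, in CPM by group and tissue. Dots are libraries and bars the mean ± SD of 4. For Col4a1 the Li and LiTra libraries lie above the Co and Tra libraries in both tissues.

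Col8a1, a chain of the type VIII network of vessels and other sheets, had the smallest p of the family in bone. It was at 19.2, 24.5, 27.3 and 15.6 CPM in Co, 64.8, 75.7, 56.6 and 73 in Li, 33.9, 37.4, 32.7 and 28.8 in Tra, and 42.5, 69.3, 70.4 and 98.5 in LiTra. The groups formed 3 steps without overlap, Co lowest, then Tra, then the 2 ligated groups. The difference from Co was 1.64 ± 0.22 in Li (adjusted p = 0.00208 by edgeR) and 1.70 ± 0.22 in LiTra (adjusted p = 0.000415). Tra against Co was not called. Col8a1 was the only 1 of 43 members without overlap in that comparison. The share of all genes without overlap there was not counted, so the Tra step is not read as an effect of overload. In gingiva, levels of 64.3, 68.3, 56.8 and 57 CPM in Co met 71.2, 75, 65.6 and 79.5 in Li, 81.1, 97.2, 64.3 and 66.9 in Tra, and 75.9, 87.5, 103 and 79.6 in LiTra. Only LiTra was called there, at 0.49 ± 0.13 (adjusted p = 0.0147).

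Col8a2, the partner chain, was at 28.9, 60.9, 42.4 and 44.9 CPM in Co bone and 78.1, 81.3, 90.4 and 94.4 in LiTra bone. These groups did not overlap, and the rise was 0.96 ± 0.19 (adjusted p = 0.00425 by edgeR). In gingiva it went the other way: 42.9, 51.6, 50.7 and 21.9 CPM in Co against 8.87, 17.3, 37.3 and 10.7 in LiTra, a fall by 1.17 ± 0.39 on the log2 scale (adjusted p = 0.0403) with overlapping libraries that was lost in 8 of 16 fits without 1 library.

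Tests of the difference between tissues in the joint fit bore on these 2 genes. The ligature effect was larger in bone than in gingiva for Col8a1, by 1.41 ± 0.26 (adjusted p = 0.00779 by edgeR), the only member called of 43 (2.33%; 2.04% of all genes, 1.36% larger in bone). That count was 2 with Col8a2 added without Co gingiva 4 or LiTra gingiva 3, 3 with Col8a2 and Col9a1 added without Li gingiva 3, and 4 by DESeq2, which added Col8a2 and, as larger in gingiva, Col4a1 and Col4a2. Over all genes DESeq2 called 1488 of 22412 for the ligature effect. The combined effect differed for 5 members (11.63%; 12.3% of all genes, 5.59% more positive in bone), each more positive in bone: Col8a1 (1.22 ± 0.26, adjusted p = 0.00356), Col8a2 (2.15 ± 0.45, adjusted p = 0.00359), Col22a1 (2.48 ± 0.60), Col11a2 (1.88 ± 0.53) and Col13a1 (1.29 ± 0.40). The count was 3 without Co gingiva 1. The call of Col13a1 was lost in 10 of 32 such fits, and both shares of members called were close to the background.

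Col12a1, the fibril-associated collagen of ligament, rose in all 4 comparisons of a ligated group with Co. In bone it was at 759, 611, 254 and 622 CPM in Co, 1326, 1020.2, 1647 and 2334 in Li, 742, 799, 581 and 921 in Tra, and 1047, 2381, 1737 and 1817 in LiTra. Both ligated groups were clear of both others. The differences were 1.49 ± 0.34 in Li (adjusted p = 0.0278 by edgeR) and 1.64 ± 0.34 in LiTra (adjusted p = 0.00514). The Li call in bone was lost in 4 of 16 fits without 1 library. Its gingival levels were 205, 448, 508 and 222 CPM in Co, 815, 736, 474 and 614 in Li, 393, 396, 363 and 477 in Tra, and 1127, 753, 1267 and 948 in LiTra. LiTra was clear of Co and Tra, with a rise of 1.57 ± 0.28 (adjusted p = 0.00168). Li overlapped Co (0.93 ± 0.27, adjusted p = 0.0495) and was no longer called in 13 of 16 fits without 1 library.

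Among the other FACIT chains, Col9a1, best known from cartilage, was scarce. In bone it was at 0.284, 0.59, 0.259 and 0 CPM in Co and 0.946, 1.39, 1.41 and 2.65 in LiTra, a difference of 2.47 ± 0.81 (adjusted p = 0.049 by edgeR) that was lost in 12 of 16 fits without 1 library. In gingiva it had 0, 0, 0 and 0 counts in Co, 136, 11, 12 and 21 in Li, 0, 5, 8 and 0 in Tra, and 0, 3, 5 and 0 in LiTra. Li gingiva was at least 56.3-fold higher than a floor of 3 counts over the Co group (adjusted p = 0.0251 by edgeR). Col9a1 met the minimum total in gingiva only through its Li counts, so this fold and p are not read as evidence of a rise. Li 1 held 136 of the 180 counts, and without it the bound was 17.9-fold and the call was lost, as it was in 4 of 16 fits without 1 library and by DESeq2. Col14a1, a relative of Col12a1, was at 7.43 to 17.1 CPM in Co gingiva and 19.8 to 123 in Li, and its difference of 2.06 ± 0.63 had an adjusted p of 0.0584.

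Col5a3 and Col5a2 are chains of type V collagen, which helps to set fibril width. Col5a3 in bone was at 46.8, 59.1, 50.8 and 69.3 CPM in Co, 112, 77.6, 107 and 114 in Li, 47.4, 42.9, 30.3 and 42.7 in Tra, and 66.6, 139, 109 and 116 in LiTra. Li stood clear of Co and LiTra overlapped it by 1 library. The rises were 0.86 ± 0.21 in Li (adjusted p = 0.0383 by edgeR, lost in 10 of 16 fits without 1 library) and 0.93 ± 0.21 in LiTra (adjusted p = 0.00806), and LiTra exceeded Tra by 1.40 ± 0.21. Gingival levels of Col5a3 were 16.8, 27.2, 21.9 and 19.6 CPM in Co, 55, 112, 38.2 and 42.4 in Li, 15, 18.8, 19.1 and 18.3 in Tra, and 34.4, 61.4, 75.5 and 53.4 in LiTra. Both ligated groups lay above both others, by 1.53 ± 0.30 in Li and 1.39 ± 0.30 in LiTra against Co.

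Col5a2 in gingiva was at 198, 291, 329 and 166 CPM in Co, 442, 721, 395 and 474 in Li, 278, 369, 261 and 339 in Tra, and 446, 487, 685 and 492 in LiTra. All 8 ligated libraries exceeded the 8 others. It rose by 1.05 ± 0.23 in Li (adjusted p = 0.0161 by edgeR, lost in 2 of 16 fits without 1 library) and 1.10 ± 0.23 in LiTra (adjusted p = 0.00434). In bone only LiTra was called, at 0.94 ± 0.30 (adjusted p = 0.0426), with overlap and lost in 10 of 16 fits without 1 library. Col5a1, the chain that pairs with them in most type V collagen, was at 592, 736, 256 and 955 CPM in Co bone, 623, 675, 790.2 and 1097 in Li, 531, 714, 518 and 766 in Tra, and 504, 856, 870.2 and 903 in LiTra. These groups overlapped throughout and none was called, nor in gingiva, where Col5a1 differed from Co by 0.89 in Li, -0.04 in Tra and 0.26 in LiTra.

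Col6a3, the long chain of the beaded filament, was at 317, 375, 185 and 419.9 CPM in Co bone, 499.6, 507, 809 and 981 in Li, 338, 459, 322 and 474 in Tra, and 406, 665, 754 and 788 in LiTra. Li lay above Co without a call. LiTra overlapped Co and was called at 1.01 ± 0.29 (adjusted p = 0.0287 by edgeR, lost in 5 of 16 fits without 1 library). Gingival Col6a3 was at 90.8, 121, 143 and 67.4 CPM in Co, 151, 273, 226 and 242 in Li, 88.8, 131, 137 and 149 in Tra, and 130.1, 179, 293 and 183 in LiTra. It rose by 1.08 ± 0.27 in Li, without overlap, and by 0.89 ± 0.27 in LiTra, with overlap. Each of these gingival calls was lost in 3 of 16 fits without 1 library. The other VI chains called were Col6a1 in LiTra bone (0.94 ± 0.29, adjusted p = 0.0401, lost in 11 of 16 fits without 1 library) and Col6a4. Col6a4 was at 0.533, 0.116, 0.222 and 0.48 CPM in Co bone and 7.36, 1.05, 0.738 and 0.707 in LiTra. LiTra 1, one of the 3 uneven libraries, was far above the rest, and without it the call (2.85 ± 0.87, adjusted p = 0.0377) was lost. Col6a2 in LiTra bone was at 0.90 ± 0.31 (adjusted p = 0.0624).

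The bulk fibrillar chains did not follow. Col1a1 in bone was at 8219, 9791, 3379 and 15798 CPM in Co, 6870.2, 10284, 8049 and 11520.1 in Li, 7591, 10783, 7623 and 9374 in Tra, and 6357, 9864, 9555 and 10824 in LiTra. All groups overlapped, and the differences from Co were -0.02 ± 0.37 in Li, -0.07 in Tra and -0.02 in LiTra. Col1a2 was at 11869, 15339, 5623 and 17325 CPM in Co, 11366, 12443, 13641 and 19417 in Li, 14413, 19152, 10414 and 15964 in Tra, and 9734, 17008, 15880.4 and 16960.1 in LiTra, at 0.18, 0.26 and 0.25 ± 0.36 from Co. Col3a1, the type III chain of young and healing tissue, was at 9729, 10273, 2791 and 10326 CPM in Co, 8954, 6508, 13944 and 21037 in Li, 10948, 14339.9, 8589 and 15006 in Tra, and 7643, 13907, 13917 and 12497 in LiTra. Its differences were 0.61, 0.56 and 0.53 ± 0.44, and none was called. Co 3, the lowest Co library for each of these genes, was one of the uneven ones. The spread of the Co libraries sets the precision of these values.

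In gingiva Col1a1 was at 979, 1249.6, 1815 and 760.3 CPM in Co, 699.6, 2066, 1207 and 1504 in Li, 521, 464, 1089 and 1873 in Tra, and 439, 553, 1036 and 593 in LiTra. LiTra ran lowest but overlapped Co, at -0.87 ± 0.44 (adjusted p = 0.174 by edgeR), and Li and Tra were at 0.19 and -0.28. Col1a2 was at 1378, 1712, 2271 and 948 CPM in Co, 1139, 2344, 1670.4 and 2171 in Li, 1251, 1255, 1611 and 2483 in Tra, and 878, 1102, 2178 and 1119 in LiTra, with no call. Col3a1 was at 1260.2, 2206, 2256 and 1035 CPM in Co, 2247, 5119, 2594 and 2716 in Li, 1816, 2445, 1927 and 2732 in Tra, and 2521, 2491, 4132 and 2835 in LiTra. Every LiTra library was above every Co library, but the differences of 0.91 in Li (adjusted p = 0.0724) and 0.83 ± 0.29 in LiTra (adjusted p = 0.0542) did not pass.

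The ratio of Col3a1 to Col1a1 counts within a library does not depend on scaling between libraries. In gingiva it was 1.29, 1.77, 1.24 and 1.36 in Co, 3.21, 2.48, 2.15 and 1.81 in Li, 3.49, 5.27, 1.77 and 1.46 in Tra, and 5.75, 4.51, 3.99 and 4.78 in LiTra. Li and LiTra were each wholly above Co, while Tra spread from the Co to the LiTra range. The mean log2 ratio exceeded that of Co by 0.75 in Li and 1.75 in LiTra, each with p = 0.0286 in a two-sided exact permutation test of 4 against 4, the smallest p it can give. Adjusted over the 4 tests of this kind, both were at p = 0.0571 (exact permutation), and so did not pass. In bone the ratio was 1.18, 1.05, 0.826 and 0.654 in Co, 1.30, 0.633, 1.73 and 1.83 in Li, 1.44, 1.33, 1.13 and 1.60 in Tra, and 1.20, 1.41, 1.46 and 1.15 in LiTra. The differences were 0.49 in Li (exact permutation p = 0.2857) and 0.52 in LiTra (exact permutation p = 0.0571, adjusted 0.0762).

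**Figure D3:**
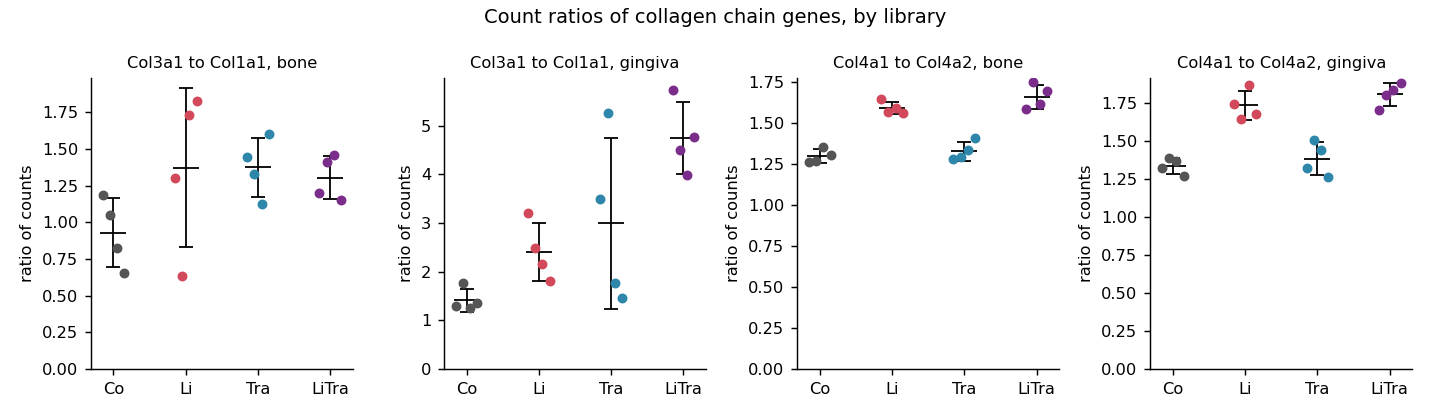
Ratio of Col3a1 to Col1a1 counts and of Col4a1 to Col4a2 counts within each library, by group and tissue. Dots are libraries and bars the mean ± SD of 4. In gingiva the LiTra ratios of Col3a1 to Col1a1, 3.99 to 5.75, lie above all Co ratios, 1.24 to 1.77.

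The make-up of the gingival collagen counts differed in step with these ratios. Col3a1 took 21.7% to 27.6% of collagen counts in Co gingiva, 33.7% to 36.0% in LiTra, 26.7% to 35.0% in Li and 25.6% to 36.5% in Tra, so that Tra reached past LiTra and Li overlapped Co. Col1a1 took 15.6% to 19.5% in Co and 6.93% to 18.2% in Tra, against 9.30% to 14.8% in Li and 6.26% to 8.45% in LiTra. The FACIT share, mostly Col12a1, was 6.24% to 7.99% in Co and 6.89% to 9.26% in Tra, against 6.71% to 12.4% in Li and 11.9% to 17.7% in LiTra. The collagen IV share was 1.39% to 2.06% in Co and 1.51% to 1.90% in Tra, against 3.26% to 5.46% in Li and 2.64% to 3.91% in LiTra. The shares of a library sum to a whole, so they do not move separately. In bone the fibrillar share was 88.5% to 93.1% in Co and 90.6% to 92.9% in Tra, against 87.2% to 89.0% in Li and 87.2% to 88.0% in LiTra.

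Of the 8 genes that fell in LiTra gingiva, Col2a1 and Col11a2 are best known from cartilage. Col2a1, the main fibrillar collagen of cartilage, was at 179, 213, 115 and 217 CPM in Co bone, 90.2, 92.6, 152 and 104 in Li, 396, 309.8, 117 and 214 in Tra, and 52.2, 87, 81.7 and 44 in LiTra. Every LiTra library was below every Co and Tra library, and Li overlapped Co. Col2a1 fell by 1.45 ± 0.34 on the log2 scale in LiTra against Co (adjusted p = 0.0106 by edgeR) and by 1.97 ± 0.35 against Tra. In gingiva it was at 22.6, 5.39, 6.5 and 9.76 CPM in Co, 9.39, 0.191, 3.93 and 1.78 in Li, 8.25, 2.05, 14.7 and 10.2 in Tra, and 0.507, 0.529, 1.52 and 0.206 in LiTra. LiTra again lay below Co and Tra, at -3.9988 ± 0.95 from Co on the log2 scale (adjusted p = 0.00835).

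Col11a2 in gingiva was at 65.4, 13.3, 44.6 and 31.8 CPM in Co, 18.6, 7.7, 25.6 and 25.2 in Li, 35.5, 17.1, 36.7 and 42.7 in Tra, and 7.12, 6.83, 11 and 6.46 in LiTra. LiTra was below Co and Tra throughout, by 2.30 ± 0.45 on the log2 scale against Co (adjusted p = 0.00304 by edgeR). Col22a1, a FACIT collagen of tissue junctions such as muscle and tendon, was at 3.33 to 13.5 CPM in Co and 0.735 to 3.57 in LiTra, and fell by 2.33 ± 0.55 with overlap. Col10a1, the marker of hypertrophic cartilage, was at or under 0.593 CPM in every bone library and 1.05 in every gingiva library. Of the scarce cartilage markers, none of the 6 tested in bone and the 5 in gingiva was called in any comparison with Co. Their summed level was 12.1 to 23.6 CPM in Co gingiva (median 20.5) and 10.1 to 16.03 in LiTra (median 12.2). In bone it was 19.6 to 40.1 CPM in Co (median 33.8) and 34.2 to 52.9 in LiTra (median 44.2). Of the defining markers, Matn1 was at 0 in all gingiva libraries, Matn3 in Co gingiva and Snorc in LiTra gingiva. The part of cartilage cells in the lower collagen values was not tested.

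Other markers were called in LiTra gingiva against Co, where 11.5% of all genes fell and 11.4% rose. Of 9 osteoblast markers, Bglap, Bglap2, Sp7, Phex and Alpl fell and Spp1 and Ibsp rose in LiTra, while the summed level was 380 to 743 CPM in Co and 742 to 1310 in LiTra. Of 8 skeletal muscle markers 3 fell, with summed levels of 123 to 2652 CPM in Co and 101 to 435 in LiTra, and of 7 Schwann cell markers 4 fell (138 to 313 CPM in Co, 112 to 137 in LiTra). The part of these cells in the lower collagen values was not tested.

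Of the epithelial collagens, Col17a1 and Col4a6 fell in the combined group and Col7a1 did not. Col17a1 in gingiva was at 444, 550.4, 445 and 581 CPM in Co, 416, 501, 497 and 524 in Li, 477, 364, 700.4 and 594 in Tra, and 329, 320.2, 301 and 343 in LiTra. All LiTra libraries lay below all others. It fell by 0.64 ± 0.16 on the log2 scale against Co (adjusted p = 0.0116 by edgeR) and by 0.72 ± 0.16 against Tra. Col4a6 was at 8.01, 10.4, 7.45 and 8.81 CPM in Co, 5.02, 4.82, 6.88 and 7.95 in Li, 13.1, 11, 12.5 and 10.3 in Tra, and 5.78, 7.15, 5.71 and 3.53 in LiTra. It fell by 0.65 ± 0.21 against Co (adjusted p = 0.04, lost in 7 of 16 fits without 1 library) and by 1.08 ± 0.21 against Tra. Col4a5, its neighbour on the X chromosome, was at 17.4, 17.7, 14.7 and 12.9 CPM in Tra and 7.22, 10.9, 11.7 and 7.45 in LiTra. It was lower by 0.75 ± 0.21 on the log2 scale in LiTra, a call lost in 4 of 16 fits without 1 library.

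Col7a1 in gingiva was at 92.6, 148, 127 and 145 CPM in Co, 134, 121, 131 and 172 in Li, 127, 111, 221 and 159.7 in Tra, and 114, 154, 169 and 127 in LiTra. Its groups overlapped, at 0.13, 0.27 and 0.14 ± 0.21 from Co. Basal epithelium markers summed to 16740 to 22638 CPM in Co gingiva and 24950 to 27896 in LiTra, with 2 of 8 higher and 2 lower. Of all genes 11.4% rose and 11.5% fell in LiTra gingiva. Suprabasal markers summed to 40550 to 59904 CPM in Co and 13944 to 31535 in LiTra, and 6 of 8 fell. Their part in the Col17a1 difference was not tested. In bone, Col17a1 was at 45, 1.97, 1.78 and 3.38 CPM in Co and 2.49, 4.99, 45.1 and 8.15 in Li, and the 2 high libraries, Co 1 and Li 3, were also those with the most basal epithelium marker counts, 2713 and 2813 CPM.

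The remaining genes called were Col13a1, a transmembrane collagen of cell contacts, and Col20a1, a FACIT chain. Col13a1 in gingiva was at 13.8 to 36 CPM in Co, 8.13 to 14.6 in Li and 7.91 to 15 in LiTra. It fell by 1.20 ± 0.28 on the log2 scale in Li (adjusted p = 0.0191 by edgeR) and by 1.19 ± 0.28 in LiTra (adjusted p = 0.00721), with overlap in both. Its Li call was lost in 4 of 16 fits without 1 library. Col20a1 was at 4.25, 3.86, 4.07 and 3.94 CPM in Co gingiva and 2.36, 2.35, 2.53 and 2.38 in LiTra, 2 tight groups without overlap. Its fall by 0.74 ± 0.25 (adjusted p = 0.0417) was lost in 10 of 16 fits without 1 library.

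**Figure D4:**
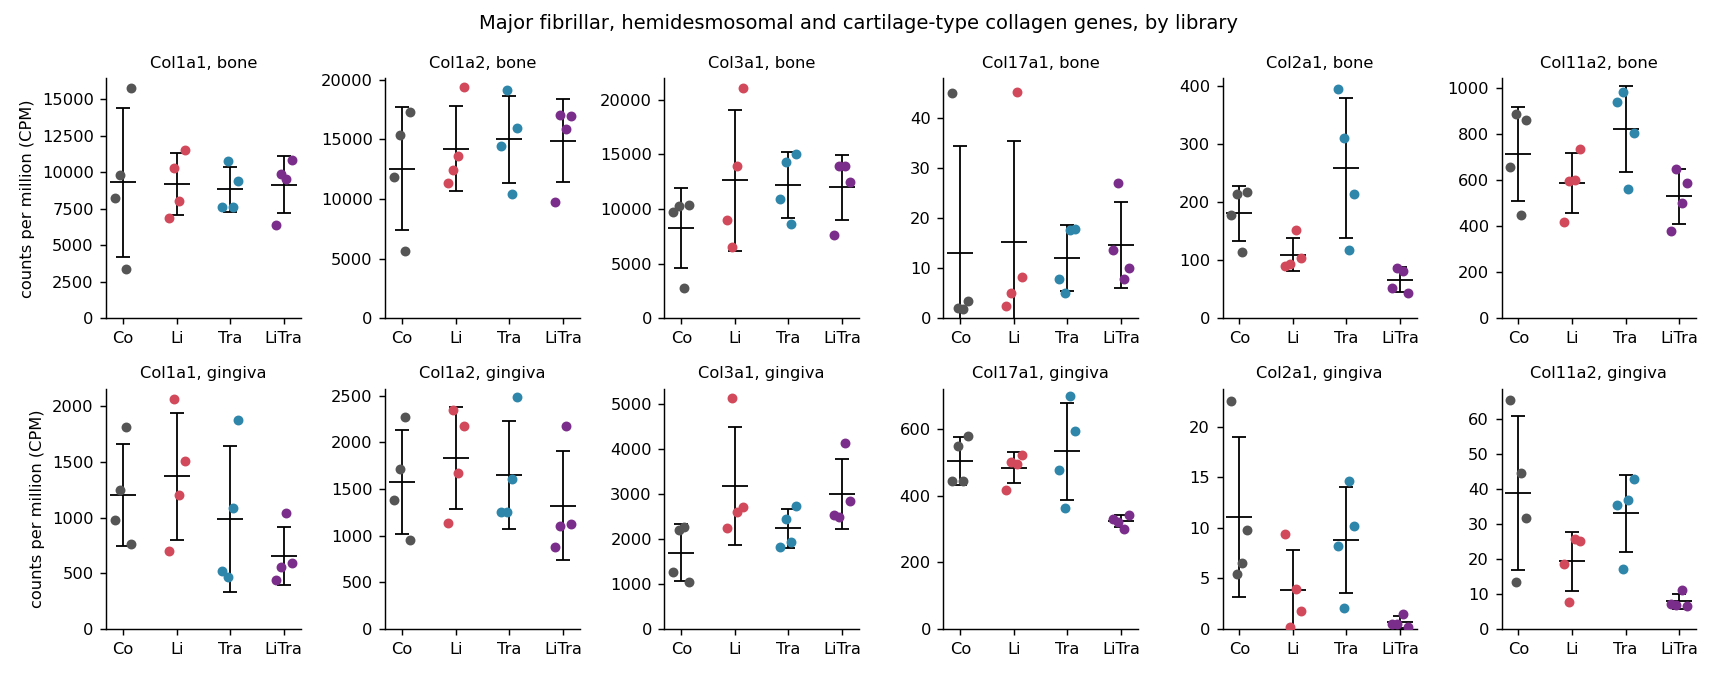
Levels of the major fibrillar, cartilage and epithelial collagen genes, in CPM by group and tissue. Dots are libraries and bars the mean ± SD of 4, cut at 0. The Col1a1 groups overlap in both tissues, while Col2a1 is lowest in LiTra.

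LiTra against Tra showed the ligature in mice that were all overloaded. In bone 5 members rose and 1 fell (13.95%; 5.56% of all genes, 3.07% higher and 2.49% lower): Col4a1, Col5a3, Col4a2, Col18a1 (1.61 ± 0.32) and Col8a1 (1.08 ± 0.22), with Col2a1 lower. In gingiva 6 rose and 6 fell (27.91%; 18.8% of all genes, 9.36% higher and 9.44% lower), with Col5a3 at 1.66 ± 0.31, Col4a1 at 1.497 ± 0.32 and Col12a1 at 1.33 ± 0.27 among the rises and Col2a1 at -3.67 ± 0.94, Col11a2 at -2.07 ± 0.45 and Col22a1 at -1.89 ± 0.54 among the falls. In gingiva the calls of Col22a1, Col18a1 and Col5a2 were each lost in 6 of 16 fits without 1 library, and that of Col4a2 in 5. Of the rises, 4 were shared between tissues, 80% of those in bone and 66.67% of those in gingiva. Over all genes the shares were 43.3% and 15.2%.

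In all, 21 of the 43 genes passed in at least 1 of the comparisons within a tissue and 22 in none. The share of all genes that passed in at least 1 was not counted. A single comparison called up to 22.9% of all genes, so the 21 are not read as particular to the family. The 22 included Col1a1, Col1a2, Col3a1, Col5a1, Col6a2, Col7a1, Col10a1 and Col14a1, described above. The others were the fibrillar Col11a1, Col24a1 and Col27a1, the collagen IV chains Col4a3 and Col4a4, Col6a5, Col6a6 and Col28a1 of the beaded filaments, the FACIT chains Col9a2, Col9a3 and Col16a1, the transmembrane Col23a1 and Col25a1, and Col26a1.

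**Figure D5:**
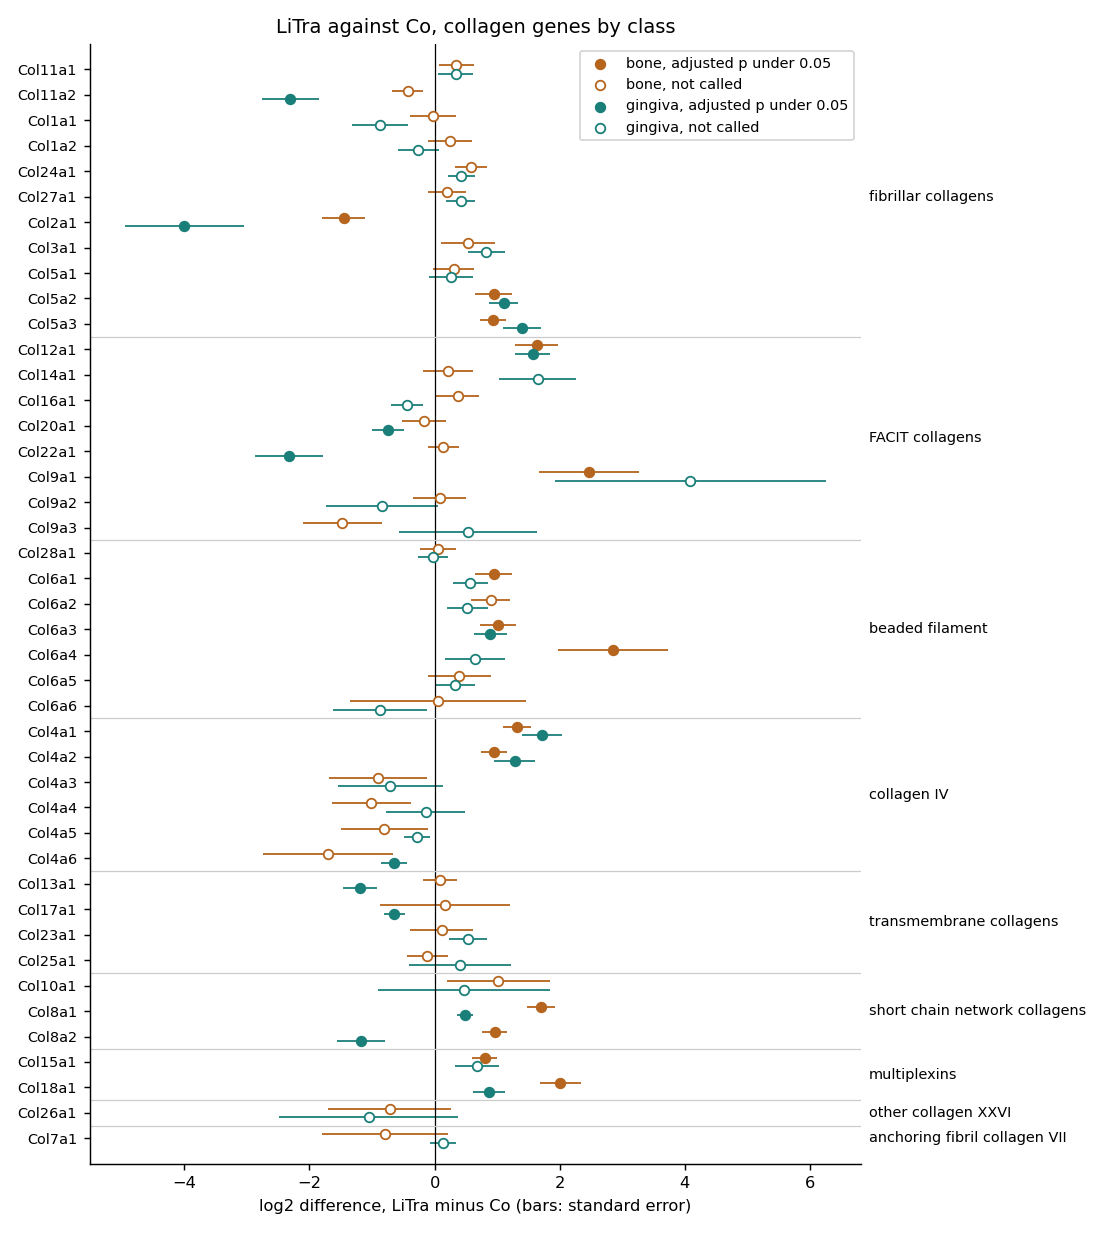
Log2 difference of LiTra from Co for the 43 collagen genes tested, bone and gingiva, with bars of 1 SE. Filled points have an adjusted p under 0.05 by edgeR. Rises of Col4a1, Col18a1 and Col12a1 appear in both tissues, and gingiva has 8 filled points below 0 where bone has 1. Col9a1 in gingiva had 0 counts in Co, so its plotted value depends on the prior count of the fit.

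The counts of calls rested in part on single libraries and on scaling. The count for Li against Co in bone was 3 without Li 3 or Li 4, and that for LiTra against Co in bone was 9 without Co 1, Co 3 or LiTra 2. In gingiva, Li against Co called 4 without Co 1, 6 without Co 4 and 5 without Li 2, and LiTra against Tra 7 without Tra 1 or LiTra 4. With library totals in place of TMM, which in bone include the nasal gland transcripts, no member was called against Co or Tra in bone. Few genes of any kind were called there: 5 of 21205 for Li against Co, 12 for LiTra against Co and 5 for LiTra against Tra. LiTra against Co in gingiva called 9 members higher and 5 lower, where 4652 of all 20143 genes were called. Without Co 3, Tra 3 and LiTra 1 the bone comparison of LiTra with Tra called 12. The shares of all genes called in fits without some libraries are not given here.

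Beyond the chains themselves, 5 lists of genes that act on collagen were followed. Of 19 genes of hydroxylation and folding, 3 rose in Li bone, 14 in LiTra bone, 10 in Li gingiva and 12 in LiTra gingiva, and none fell. Over all genes 2.66%, 8.29%, 5.19% and 11.4% rose in these comparisons. Plod2, which hydroxylates the telopeptide lysines used in crosslinks, rose by 1.76 ± 0.22 in LiTra gingiva (adjusted p = 0.00026 by edgeR). The lysyl hydroxylase Plod3 rose there by 1.01 ± 0.14 and the prolyl hydroxylase subunits P4ha1 and P4ha2 by 1.09 ± 0.17 and 0.84 ± 0.13. In LiTra bone P4ha1 rose by 1.05 ± 0.18 (adjusted p = 0.00173), P3h4 by 0.96 ± 0.17, the folding factor Fkbp14 by 0.96 ± 0.18 and Plod1 by 0.81 ± 0.17. The median over the 19 genes was 0.89 in LiTra bone and 0.71 in LiTra gingiva, against -0.01 over all genes in each. Summed osteoblast markers in bone were at 5552 to 10209 CPM in Co and 9504 to 13769 in LiTra, with Ibsp and Spp1 of the 9 higher and Bglap and Bglap2 lower, and their part in these values was not tested.

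Crosslinking is the work of the lysyl oxidase family. Lox, the lysyl oxidase, was at 120.4 ± 18.7 CPM (SD, n = 4) in Co bone, 255 ± 30.9 in Li, 157 ± 26.7 in Tra and 317 ± 74.2 in LiTra. In gingiva it was at 33.1 ± 10.8 CPM in Co, 114 ± 69.5 in Li, 30.1 ± 5.49 in Tra and 151 ± 11.2 in LiTra. It rose by 1.40 ± 0.18 in LiTra bone (adjusted p = 0.000398 by edgeR) and 2.19 ± 0.34 in LiTra gingiva (adjusted p = 0.000795). Of the 5 family members 2 rose in Li bone, 3 in LiTra bone and 3 in each ligated gingiva group. Over all genes 2.66% rose in Li bone, 8.29% in LiTra bone, 5.19% in Li gingiva and 11.4% in LiTra gingiva. Loxl3 was among them throughout, at 1.08 ± 0.24 in LiTra bone and 1.55 ± 0.28 in LiTra gingiva.

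Of the genes for collagen breakdown and uptake, 2 of 7 rose in Li bone, 3 of 7 in LiTra bone and 3 of 8 in each ligated gingiva group. The shares of all genes that rose were 2.66% and 8.29% in bone and 5.19% and 11.4% in gingiva. In LiTra bone 8.64% of all genes fell. Mmp13, the main interstitial collagenase of the mouse, rose by 2.36 ± 0.31 in LiTra bone (adjusted p = 0.000427 by edgeR) and 4.60 ± 0.54 in LiTra gingiva (adjusted p = 0.000229). Ctsk, the collagen-degrading protease of osteoclasts, rose by 1.79 ± 0.30 and 2.61 ± 0.40. In LiTra bone the neutrophil collagenase Mmp8 fell by 1.59 ± 0.51. Summed neutrophil markers were at 11906 to 15085 CPM in Co bone and 2737 to 7138 in LiTra bone, where Ltf and Camp of the 8 were lower. In gingiva they were at 149 to 823 CPM in Co, 937 to 7278 in Li and 2132 to 8784 in LiTra, with S100a8 and S100a9 of the 8 higher in both ligated groups and Elane at 0 in all LiTra libraries. Their part in the breakdown genes' values was not tested. Of 13 genes of secretion and propeptide removal, 3 rose in Li bone, 4 in LiTra bone, 2 in Li gingiva and 3 in LiTra gingiva, where Pcolce2 and Creb3l1 fell. In gingiva these counts stand beside 5.19% and 11.4% of all genes that rose, and with 13 genes they are not read as particular to the list. Creb3l1, a regulator of collagen secretion in osteoblasts, fell by 1.91 ± 0.61.

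Receptors split by tissue in their counts, though the lists as wholes were not compared by a test. Gene by gene, the joint fit called the combined effect lower in bone than in gingiva for 2 of 9, Lair1 and Itga1. The other 7 were not called, and over all genes 12.3% were called in either direction. Of all genes 11.4% rose and 11.5% fell in LiTra gingiva, and 8.29% rose and 8.64% fell in LiTra bone. In LiTra gingiva the integrin chains Itga1, Itga2 and Itgb1 rose, by 1.16 ± 0.18, 1.18 ± 0.18 and 0.74 ± 0.14, and Ddr1, the epithelial discoidin receptor, fell by 0.53 ± 0.16. In bone none of 9 rose and Lair1, an inhibitory collagen receptor of leukocytes, fell by 0.92 ± 0.27 in LiTra. In bone 8 of 8 erythroid and 6 of 8 B lineage markers also fell in LiTra, and their part in these values was not tested. In Tra against Co no gene of any of the 5 lists was called in either tissue.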

How the data were processed

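Poly(A) RNA was extracted from bone and gingiva with TRIzol and a column kit, per the labels' protocols. Each deposited table gives estimated counts, made by the authors, in whole numbers for every gene and library. Per the submitters' processing notes, which list no order or settings, the tools were HISAT2 2.2.1 and StringTie 2.1.7, Trimmomatic 0.39 and FastQC 0.11.9, and DESeq2 1.32.0, with the build GRCm39. For the gene annotation, read assignment and use of strand, settings were not given in the sources used here. Symbols matched 52083 of 55359 identifiers in a gene table. The columns with the letters CR were read as the composite resin of the trauma groups.

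Counts were fitted in R 4.3.3 with edgeR 4.0.16 (filterByExpr with minimum count 10 and minimum total 15, TMM, quasi-likelihood F test, two-sided, Benjamini-Hochberg adjusted p under 0.05 over all genes). All 16 libraries of a tissue entered 1 fit of 21205 genes in bone or 20143 in gingiva, and all 32 a joint fit of 22559 genes for tissue differences. Tested on simulated counts for Li against Co, the fit called 36 of 100 genes changed 2-fold and 71 of 100 changed 4-fold in bone (20642 genes), and 53 and 84 in gingiva (19651 genes). Gene levels per kb use the length of all exons of a gene, overlaps counted once, from a GENCODE annotation separate from the gene table of symbols. Whether it matches the annotation behind the counts is not known. Alternatives were DESeq2's size factors, library totals, no filter, limma-voom with quality weights (limma 3.58.1), DESeq2 1.42.0, a filter that kept genes with 4 or more libraries above 1 CPM, the replicate number as a block, the compared groups alone, and leaving out each library, or Co 3, Tra 3 and LiTra 1 of bone together. Values per library are given for 11 set genes and for called genes whose libraries did not overlap, at most 6 each way per comparison. Pathway genes named are up to 4 called per list with the smallest p. Members, lists and tests were chosen with earlier results of these data known. Library totals limit counting error only.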

Additional observations from a re-analysis of the deposited data

Results flagged for a closer look

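In 15 of 156 groups of 4 libraries tested, 1 library stood far from the other 3, with a gap to its nearest neighbour above Dixon's critical share of the group's range. Chance alone flags about 1 in 20 groups. In bone, Col17a1 was at 45.0 CPM in Co 1 and 45.1 in Li 3, against at most 3.38 and 8.15 in the other libraries of those groups. Col7a1 was at 159 CPM in Tra 3 and 48.0 in LiTra 1, and Col6a4 at 7.36 CPM in LiTra 1. Col3a1 was low in Co 3, at 2791 CPM, and Col1a2 and Col5a1 were low in LiTra 1, at 9734 and 504 CPM. Tra 3, Co 3 and LiTra 1 are the 3 bone libraries with over 50% of their counts in 10 genes.

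In gingiva, Li 2 stood above the other ligature libraries for 5 genes: Col3a1 at 5119 CPM, Col4a1 at 485, Col4a2 at 295, Col18a1 at 207 and Col15a1 at 168. It also had the highest summed endothelial marker level of the tissue, 511 CPM. Col9a1 was at 3.40 CPM in Li 1, and Col11a2 at 11 CPM in LiTra 3.

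Effects that differed between the tissues by the test of the difference were the ligature effect on Col8a1, larger in bone by 1.41 on the log2 scale. For the combined effect they were those on Col8a1 (1.22), Col8a2 (2.15), Col22a1 (2.48), Col11a2 (1.88) and Col13a1 (1.29), each more positive in bone. The call of Col11a2 was lost without Co gingiva 1 and with the replicate number as a block, that of Col13a1 with the block, without the filter on low counts and in 10 of 32 fits that left out 1 library, and all 5 with library totals.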

How the results depend on the processing

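None of the 70 calls of single collagen genes changed direction under the alternatives run. Of the values of single genes under an alternative, 547 kept their call and 108 lost it, including 36 of 70 with library totals. Library totals moved the median of all genes by 0.15 for Li against Co and 0.11 for LiTra against Tra in bone, by -0.10 for LiTra against Li in bone, and by 0.15 for LiTra against Tra in gingiva. Its sign turned for Li against Co in bone (-0.02 to 0.13) and for LiTra against Co in bone (-0.01 to 0.03) and gingiva (-0.01 to 0.08). With them the counts of collagen genes called became 0 for Li against Co (6 with TMM), LiTra against Co (14) and LiTra against Tra (6) in bone. They also became 0 for the ligature (1) and combined (5) differences between tissues. Over all genes, library totals called 5, 12 and 5 of 21205 in these bone comparisons and 0 and 17 of 22559 for these differences. DESeq2 called 12 for Li against Co in bone, 3 for LiTra against Li in gingiva (0 by edgeR) and 4 for the ligature difference. Over all genes it called 1904 of 20847, 1413 of 20096 and 1488 of 22412 in these. Limma-voom called 12 for LiTra against Tra in bone and 1 for LiTra against Li in gingiva. The fit without Co 3, Tra 3 and LiTra 1 called 12 for LiTra against Tra in bone, and the fit of the compared groups alone 3 for Li against Co in gingiva (10 in the shared fit). Shares of all genes called by limma-voom, with libraries left out or with the compared groups alone are not given here. The causes were not tested. Leaving out 1 library gave 3 to 7 for Li against Co, 9 to 14 for LiTra against Co and 6 to 9 for LiTra against Tra in bone. In gingiva it gave 4 to 11, 11 to 18 and 7 to 12, and 0 to 1 for LiTra against Li. For the tissue differences it gave 1 to 3 and 3 to 6.

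Deviations of same-numbered libraries from their group means had correlations from -0.33 to 0.55, not all over 0.1 for any pair of groups. For Li and Tra in gingiva 3 were over 0.1. Between groups a number cannot mark 1 animal, since each group had its own treatment, so within a tissue the block by number is not a block of animals. Between bone and gingiva of a group the correlations ran from -0.14 to 0.22. The labels do not state whether a number marks 1 animal there. Low correlations cannot exclude it, so pairing of the tissues stayed unknown. With the replicate number as a block the counts were 7, 12 and 7 in bone and 11, 15 and 12 in gingiva for the 3 comparisons with calls, 30 for Co bone against Co gingiva, and 1 and 4 for the differences. The log2 ratio of Col3a1 to Col1a1 differed in gingiva by 0.75 in Li and 1.75 in LiTra with the block, where sign flips cannot give a p below 0.125. With medians in place of means it was 0.80 and 1.81. Without 1 library the Li value in gingiva ran from 0.60 to 0.88, and the LiTra value in bone from 0.37 to 0.65. Depth limits scarce genes such as Col9a1 and Col10a1, at under 1 to a few CPM.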
